A study of Mus musculus with 5 samples.

Results

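The data describe 53 cell cycle genes in LPS-stimulated mouse macrophages, chosen by name and all found among the 24419 gene rows of the expression table. They were divided by role into 15 G1 regulators, 15 replication genes and 23 mitosis genes. Bone marrow cells of C57BL/6 mice had been grown for 5 days with 50 ng/ml M-CSF to give bone marrow-derived macrophages (BMMs), which were then activated with 100 ng/ml LPS. Both groups therefore carried M-CSF and LPS, and they differed in what was added for the last 18 h, which was PBS in 2 libraries and 100 ng/ml recombinant Sema3G in 3 libraries. Nothing in the labels says whether the libraries came from separate mice or cultures, so the p values measure the spread between these libraries only. The question asked of the genes was whether RNA of the cell cycle machinery differed between Sema3G and PBS, because the study measured DNA synthesis in BMMs with and without Sema3G in a separate, longer culture.

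Cells enter the cycle when D-type cyclins with CDK4 and CDK6, and then cyclin E with CDK2, inactivate the retinoblastoma protein and free the E2F transcription factors. E2F switches on the genes that license and copy DNA, and a later wave of genes drives the spindle, the kinetochores and cell division. BMMs divide in response to M-CSF, and LPS is known to hold them before S phase, in part through the CDK inhibitor p21, which Cdkn1a encodes. In bulk RNA, fewer dividing cells and less RNA per dividing cell cannot be told apart.

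The values are counts of unique molecular identifiers (UMIs), one for each RNA molecule caught at its 3′ end, and CPM, the UMIs scaled to a common library total. A 3′ end is caught once per molecule whatever the gene's length, so no value was divided by length, and levels of different genes are set side by side only roughly. Library totals lay between 1798469 and 2215855 UMIs, and 3 UMIs, the number taken as the limit of detection, correspond to between 1.35 and 1.67 CPM. The ribosomal RNA precursor Rn45s made up 1.01% and 3.19% of the PBS totals and from 6.31% to 7.88% of the Sema3G totals, and UMIs outside the listed genes held a larger share still, since listed genes made up 77.6% and 75.6% of the PBS totals but 71.3%, 67.1% and 65.9% of the Sema3G totals. Both shares lower the CPM of the other genes. The small nucleolar RNA Snord89 had 17 and 50 UMIs under PBS against 460, 1134 and 1191 under Sema3G. Of 10 macrophage markers, 9 had at least 222 UMIs in every library, among them Csf1r, the M-CSF receptor, and Adgre1, while Mertk had between 0 and 5. The 9 markers of bone marrow progenitors summed to 2 or 3 UMIs in each library, with Kit, Elane, Ctsg and Flt3 at 0 in all 5, and the 7 lymphoid markers were at 0 in all 5. The 5 stromal markers summed to 20 to 51 UMIs, the 5 neutrophil markers to 186 to 315, nearly all of it S100a8, the 5 erythroid markers to 0 to 5, and the 4 mast cell and basophil markers to 0 or 1. The summed macrophage markers lay lower with Sema3G, at 10273, 10695 and 10465 CPM against 14205 and 11054 CPM with PBS, and their part in the values below was not tested. The other lists overlapped between the groups.

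RNA of the cell cycle genes was scarce in these cells apart from a few genes. Of the 53 genes, 35 had fewer than 20 UMIs in each of the 5 libraries, and 4 had more than 100 in each, namely Cdkn1a, Ccnd3, Cdkn1b and Tuba1b. Over all 5 libraries, the median gene had 105 UMIs among the G1 regulators, 68 among the replication genes and 13 among the mitosis genes. The median over the 10088 genes abundant enough to test was 165. Cdkn1a alone held more UMIs than the other 52 genes together in Sema3G replicates 2 and 3, with 1610 of 2888 and 1457 of 2790. It held 1172 of 2373 in PBS replicate 2, 616 of 2290 in PBS replicate 1 and 801 of 2096 in Sema3G replicate 1.

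**Figure D1:**
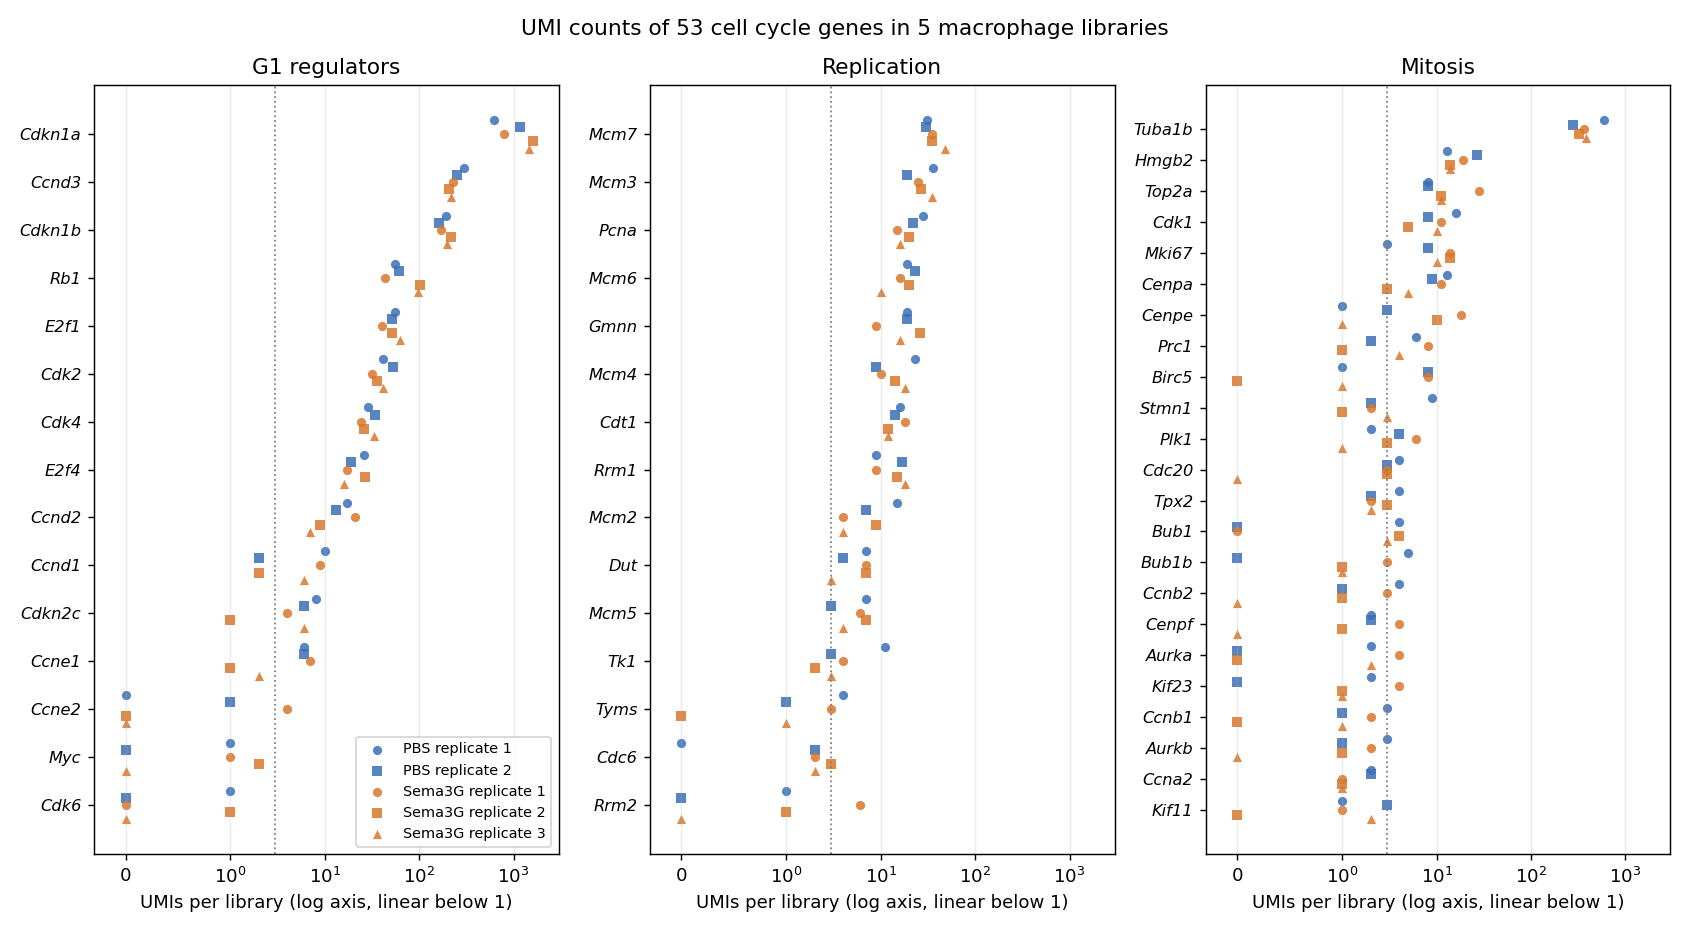
UMI counts of the 53 cell cycle genes (rows, ordered by mean CPM) in each of the 5 libraries, on a log axis that is linear below 1, with PBS in blue and Sema3G in orange. The dotted line marks 3 UMIs. Most mitosis genes lie near or under it in both groups, while Cdkn1a, Ccnd3, Cdkn1b and Tuba1b stand above 100.

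No cell cycle gene passed the test between Sema3G and PBS. The test was limma on log2(CPM + 1) over 10088 genes whose mean reached 1 CPM or more, under Benjamini-Hochberg adjustment over all of them. Of the 39 cell cycle genes that reached this mean, 0 were higher and 0 lower at an adjusted p below 0.05, where 1.8% of all tested genes were called, 1.59% as higher and 0.218% as lower. At an unadjusted p below 0.05, 1 of the 39 was called, Ccnd3, against 21.1% of all tested genes (6.83% higher and 14.2% lower). On the recovered UMI counts, edgeR's quasi-likelihood test and DESeq2 also called 0 of them, against 3.01% of all tested genes (2.98% higher and 0.0297% lower) and 2.42% (2.41% higher and 0.00991% lower).

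Of these 39, Bub1b and Stmn1 reached the mean of 1 CPM through PBS alone. The 39 log2 fold changes ran from -0.88 for Mcm2 to 1.15 for Cenpe. Their median was -0.28, beside -0.22 over all tested genes, and the medians of the G1 regulators, the replication genes and the mitosis genes were -0.32, -0.23 and -0.28. All 3 Sema3G libraries lay above both PBS libraries for 2 of the 39 genes, Mki67 and Top2a, where 11.9% of all tested genes did so. They lay below both for 6, namely Ccnd3, Cdk2, Cdk4, Cdkn2c, Pcna and Mcm6, where 26.5% of all tested genes did so. The 95% interval of the log2 fold change of CPM + 1 stayed below a 2-fold rise for 11 of 12 G1 regulators and 11 of 12 replication genes. It did so for only 8 of 15 mitosis genes, beside 79.6% of all tested genes. It stayed within 2-fold in both directions for 6 G1 regulators, 3 replication genes and 1 mitosis gene, beside 45.7% of all tested genes. For the other genes of every role the interval reached a 2-fold change in at least 1 direction. A change of that size is not excluded for them with these 5 libraries. Folds of CPM + 1 understate changes of scarce genes. For these, an interval within 2-fold does not exclude a 2-fold change in CPM. These intervals hold counting error and the spread between libraries together.

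**Figure D2:**
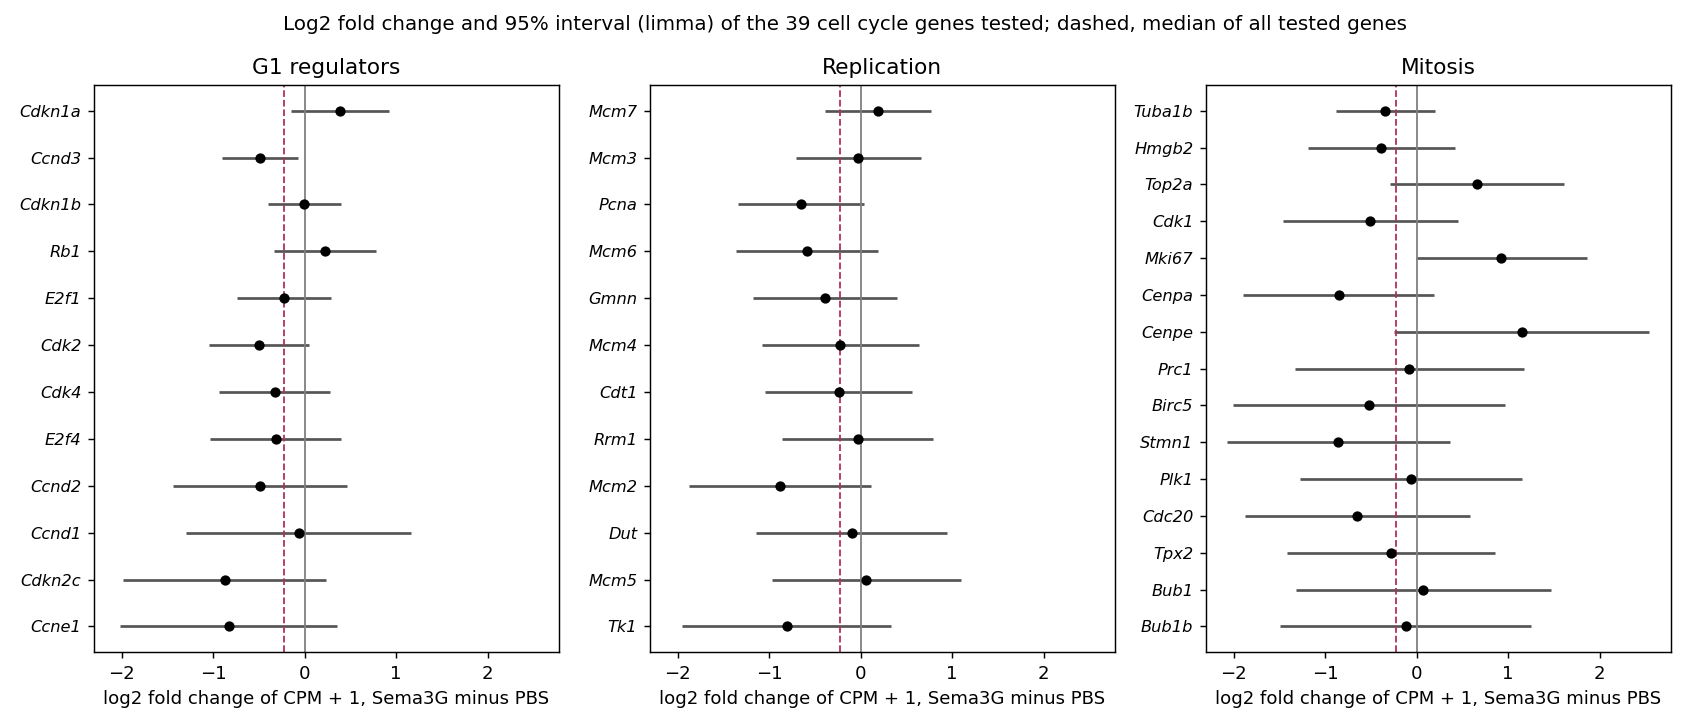
Log2 fold change of CPM + 1 (Sema3G minus PBS, points) with its 95% interval from limma (bars) for the 39 cell cycle genes tested, in 3 panels ordered by mean CPM. The dashed line is the median of all tested genes, at -0.22. The intervals widen from the abundant genes at the top, such as Ccnd3, to the scarce genes at the bottom, and only that of Ccnd3 leaves out 0.

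Among the G1 regulators, the most abundant was the CDK inhibitor gene Cdkn1a (ENSMUSG00000023067.14, chr17:29090976-29100727, plus strand, GRCm38). It had 338 and 627 CPM under PBS against 445, 727 and 672 CPM under Sema3G, so that the groups overlapped. Its PBS mean was 483 ± 204 CPM (SD, n = 2), and its Sema3G mean 615 ± 149 CPM (SD, n = 3). The log2 fold change was 0.38 (standard error, SE, 0.26, 95% interval -0.15 to 0.92, limma adjusted p = 0.392). This value hung on PBS replicate 1, the lowest of the 5 libraries, and was -0.061 without it. The inhibitor gene Cdkn1b, which encodes p27, had 107 and 86.2 CPM with PBS and 95.6, 99.3 and 91.7 CPM with Sema3G. All Sema3G values of Cdkn1b fell between the PBS values, and its log2 fold change was -0.0052 (95% interval -0.40 to 0.39, limma adjusted p = 0.991). The third inhibitor gene, Cdkn2c, which encodes p18, was near the limit of detection, with 8 and 6 UMIs under PBS against 4, 1 and 6 under Sema3G.

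Of the D-type cyclins, which pair with CDK4 and CDK6, Ccnd3 (ENSMUSG00000034165.16, chr17:47505051-47599691, plus strand) was the one present in quantity. It had 165 and 134 CPM under PBS against 127, 92.5 and 101 CPM under Sema3G. Every Sema3G library lay below both PBS libraries, though Sema3G replicate 1 came close to PBS replicate 2. The log2 fold change was -0.49 (SE 0.20, 95% interval -0.90 to -0.072, limma adjusted p = 0.179), or -0.26 relative to the median of all genes. With CPM taken only from listed genes, Rn45s left out, it was -0.20. Ccnd3 shares exon sequence with Bysl on the other strand, whose reads could not be told apart if strand was not used. Ccnd2 had 17 and 13 UMIs under PBS against 21, 9 and 7 under Sema3G, and Ccnd1 had 10 and 2 under PBS against 9, 2 and 6 under Sema3G. Both overlapped between the groups. For Ccnd1 the interval reached from -1.29 to 1.16 around a log2 fold change of -0.066 (limma adjusted p = 0.962).

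The kinase genes Cdk4 and Cdk2 were low but present in every library. Cdk2 had 22.5 and 28.4 CPM with PBS and 17.8, 16.2 and 18.9 CPM with Sema3G, a log2 fold change of -0.50 (SE 0.26, limma adjusted p = 0.282). Cdk4 had 15.9 and 18.2 CPM with PBS and 13.3, 11.7 and 15.2 CPM with Sema3G. For both genes the Sema3G libraries lay below the PBS libraries without passing the test. Cdk6 was all but absent, with 1 UMI in PBS replicate 1, 1 in Sema3G replicate 2 and 0 elsewhere. The cyclin E genes were scarce as well. Ccne1 had 6 and 6 UMIs under PBS against 7, 1 and 2 under Sema3G, and Ccne2 had 0 and 1 under PBS against 4, 0 and 0 under Sema3G.

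Rb1, which encodes the retinoblastoma protein that holds back E2F, had 30.2 and 32.7 CPM with PBS and 24.5, 45.6 and 44.7 CPM with Sema3G. Sema3G replicate 1 was the lowest of the 5 libraries and Sema3G replicates 2 and 3 the highest, and the log2 fold change was 0.22 (SE 0.27, limma adjusted p = 0.645). E2f1, an activating E2F, had 30.2 and 27.8 CPM with PBS and 22.2, 23.5 and 29.0 CPM with Sema3G, with a log2 fold change of -0.22 (limma adjusted p = 0.618), the median of all genes. E2f4, a repressive E2F, had 26 and 19 UMIs under PBS against 17, 27 and 16 under Sema3G. Myc, the growth factor-induced transcription factor that promotes G1 entry, had 1 and 0 UMIs under PBS against 1, 2 and 0 under Sema3G. Both groups of Myc were under the limit of detection, so no fold change is given.

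The replication genes were low in every library, and none passed the test. Mcm7, a subunit of the MCM helicase that unwinds DNA at the fork, was the most abundant, with 17.0 and 16.1 CPM with PBS and 19.5, 15.8 and 22.1 CPM with Sema3G. The groups overlapped, and its log2 fold change was 0.19 (SE 0.28, limma adjusted p = 0.718). The other subunits Mcm2 to Mcm6 had between 3 and 36 UMIs in any library. Summed over the 6 subunits, the helicase had 131 and 91 UMIs under PBS against 96, 112 and 119 under Sema3G, or 60.3 ± 16.4 CPM (SD, n = 2) and 52.9 ± 2.19 CPM (SD, n = 3). The difference was smaller than the distance between both PBS libraries. The 14 replication genes other than Mcm7 summed to 107 and 76.6 CPM under PBS against 74.5, 73.6 and 65.5 CPM under Sema3G, every Sema3G library below both PBS libraries, as for 26.5% of all tested genes, but with Mcm7 included the groups overlapped. Mcm3 gave a log2 fold change of -0.024 (adjusted p = 0.976), Mcm4 of -0.22 (adjusted p = 0.781) and Mcm6 of -0.59 (adjusted p = 0.365), all from limma.

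Pcna, the sliding clamp that holds DNA polymerases on the template, had 28 and 22 UMIs under PBS against 15, 20 and 16 under Sema3G. In CPM these were 15.4 and 11.8 against 8.34, 9.03 and 7.38, every Sema3G library below both PBS libraries. The log2 fold change was -0.65 (SE 0.33, 95% interval -1.34 to 0.041, limma adjusted p = 0.266), and it kept its sign with each library left out, between -0.83 and -0.47. The licensing genes Cdt1 and Cdc6 load the helicase on origins, and geminin, from Gmnn, blocks Cdt1. Cdt1 had 16 and 14 UMIs under PBS against 18, 12 and 12 under Sema3G, and Cdc6 had between 0 and 3 in any library. Gmnn had 19 and 19 UMIs under PBS against 9, 26 and 16 under Sema3G, a log2 fold change of -0.39 (limma adjusted p = 0.555). No licensing gene separated the groups.

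Of the genes that supply deoxynucleotides, those other than Rrm1 had at most 11 UMIs in any library. Rrm1, the large subunit of ribonucleotide reductase, had 9 and 17 UMIs under PBS against 9, 15 and 18 under Sema3G. Its S phase partner Rrm2 had 1 and 0 under PBS against 6, 1 and 0 under Sema3G. The large subunit was thus found in every library, and the partner that limits the enzyme in S phase was at or under 1 UMI in 4 of the 5 libraries. Tk1, thymidine kinase, had 11 and 3 UMIs under PBS against 4, 2 and 3 under Sema3G. Tyms, thymidylate synthase, had between 0 and 4 UMIs in any library, and Dut, dUTPase, between 3 and 7.

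Among the mitosis genes, Tuba1b accounted for most of the RNA. It encodes an alpha-tubulin that all cells use outside mitosis too. Near-identical paralogs may make the count of Tuba1b uncertain, which was not tested. Tuba1b had 327 and 147 CPM under PBS against 205, 144 and 176 CPM under Sema3G, a log2 fold change of -0.34 (SE 0.26, limma adjusted p = 0.446). The PBS libraries alone differed by 2.22-fold (95% exact binomial interval 1.93 to 2.58, counting error only), more than the groups did. Without PBS replicate 2 the log2 fold change of Tuba1b was -0.92 (limma adjusted p = 0.0407), and without PBS replicate 1 it was 0.23. Over the other alternatives the adjusted p of Tuba1b lay between 0.204 and 0.951. Hmgb2, a chromatin protein that is also made outside mitosis, had 13 and 27 UMIs under PBS against 19, 14 and 14 under Sema3G, a log2 fold change of -0.39 (limma adjusted p = 0.570). Stmn1, the microtubule destabilizer stathmin, had 9 and 2 UMIs under PBS against 2, 1 and 3 under Sema3G.

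The remaining 20 mitosis genes are used mainly in dividing cells, and together they had 86 and 65 UMIs under PBS against 133, 63 and 56 under Sema3G. Summed in CPM, they stood at 41.0 ± 8.81 (SD, n = 2) with PBS and 42.7 ± 27.1 (SD, n = 3) with Sema3G. With all 20 genes the group means were close, and the spread came from Sema3G replicate 1. Its summed level was 2.73-fold that of Sema3G replicates 2 and 3 together (95% exact binomial interval 2.11 to 3.52, counting error only). The other Sema3G libraries, at 28.4 and 25.8 CPM, lay below both PBS libraries, at 47.2 and 34.8 CPM. Without Top2a and Cenpe the sums were 42.3 and 28.9 CPM with PBS against 48.4, 19.0 and 20.3 CPM with Sema3G. The means were then 35.6 ± 9.47 CPM (SD) with PBS and 29.2 ± 16.6 CPM (SD) with Sema3G.

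Mki67 encodes Ki-67, the standard marker of cycling cells. It had 3 and 8 UMIs under PBS against 14, 14 and 10 under Sema3G, in CPM 1.65 and 4.28 against 7.78, 6.32 and 4.61. All 3 Sema3G libraries lay above both PBS libraries, the lowest just above PBS replicate 2. The log2 fold change was 0.93 (SE 0.44, 95% interval -0.0049 to 1.86, limma adjusted p = 0.239), and it was 0.43 without PBS replicate 1. Top2a, the topoisomerase that untangles chromosomes before they part, had 8 and 8 UMIs under PBS against 28, 11 and 11 under Sema3G. Its Sema3G libraries also lay above both PBS libraries, but those of replicates 2 and 3, at 4.96 and 5.07 CPM, were close to the 4.40 and 4.28 CPM with PBS. The log2 fold change of Top2a was 0.66 (SE 0.45, 95% interval -0.29 to 1.61, limma adjusted p = 0.405), and 0.17 without Sema3G replicate 1. Cenpe, a kinetochore motor singled out once its values were known, had 1 and 3 UMIs under PBS against 18, 10 and 1 under Sema3G. Its groups overlapped (log2 fold change 1.15, SE 0.66, limma adjusted p = 0.323). A fit with a replicate block, which leaves out Sema3G replicate 3, called Cenpe higher. It gave a log2 fold change of 1.95 (limma adjusted p = 0.0169, 1 residual degree of freedom). On the counts and with TMM scaling, edgeR's quasi-likelihood test gave 2.26 for Cenpe (adjusted p = 0.266) and 1.11 for Top2a (adjusted p = 0.329).

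The genes that start mitosis did not share this order. Cdk1, the kinase that triggers mitosis, had 16 and 8 UMIs under PBS against 11, 5 and 10 under Sema3G, a log2 fold change of -0.51 (SE 0.46, limma adjusted p = 0.529). Its partner cyclin genes Ccna2, Ccnb1 and Ccnb2 had between 0 and 4 UMIs in any library. Ccna2 had 2 UMIs in each PBS library and 1 in each Sema3G library, under the limit of detection in all 5, so no fold is given. Cenpa, the histone variant that marks centromeres, had 13 and 9 UMIs under PBS against 11, 3 and 5 under Sema3G, a log2 fold change of -0.85 (limma adjusted p = 0.326). The groups overlapped for Cdk1 and for Cenpa.

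The mitotic kinase genes Plk1, Aurka, Aurkb, Bub1 and Bub1b had between 0 and 6 UMIs in any library. Cdc20, which activates the anaphase promoting complex, had 4 and 3 UMIs under PBS against 3, 3 and 0 under Sema3G, where a count of 0 allows up to 1.38 CPM in that library. Birc5, survivin of the chromosomal passenger complex, had 1 and 8 under PBS against 8, 0 and 1 under Sema3G, and so differed more within the groups than between them. The spindle and cytokinesis genes Tpx2, Prc1, Kif11 and Kif23 and the kinetochore gene Cenpf had between 0 and 8 UMIs in any library. In all, 8 mitosis genes had a mean under 1 CPM and were not tested, namely Ccna2, Ccnb1, Ccnb2, Aurka, Aurkb, Cenpf, Kif11 and Kif23. Likewise untested were 3 G1 regulators, Myc, Cdk6 and Ccne2, and 3 replication genes, Rrm2, Tyms and Cdc6.

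**Figure D3:**
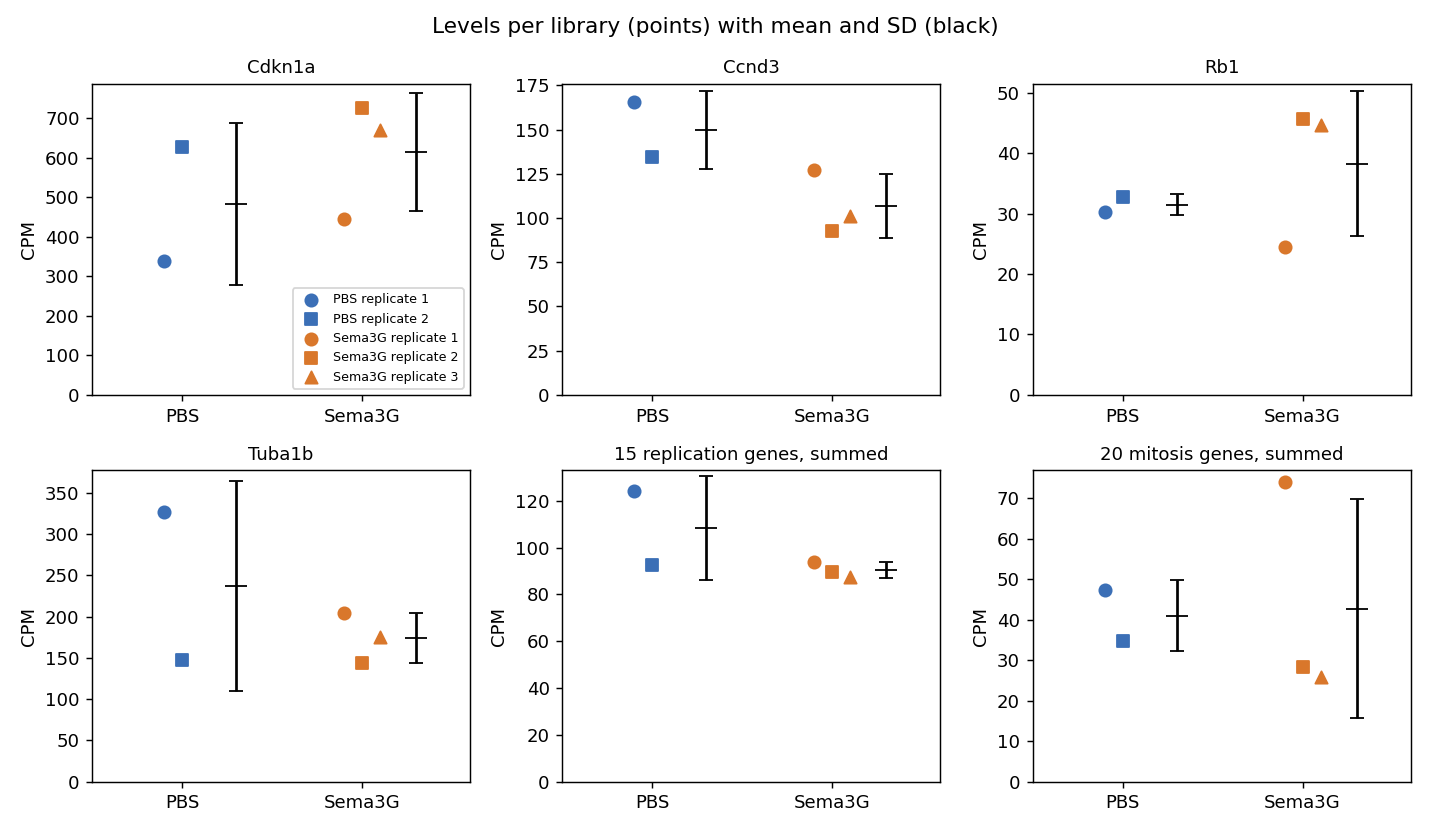
CPM in each library (points, PBS in blue and Sema3G in orange) with the group mean and SD (black) for Cdkn1a, Ccnd3, Rb1, Tuba1b, the 15 replication genes summed and 20 mitosis genes summed without Tuba1b, Hmgb2 and Stmn1. All axes start at 0. Sema3G replicate 1 stands apart from Sema3G replicates 2 and 3, with the highest mitosis sum and the lowest Rb1 of the 5 libraries, and PBS replicate 1 has the lowest Cdkn1a.

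Libraries of one group differed among themselves in these genes. From the highest level to the lowest, the sum of the 20 mitosis genes ran from Sema3G replicate 1 through PBS replicates 1 and 2 to Sema3G replicates 2 and 3, from 74.0 to 25.8 CPM. The sum of the 15 replication genes ran from 124 CPM in PBS replicate 1 and 94.0 CPM in Sema3G replicate 1 to 87.6 CPM in Sema3G replicate 3. Apart from PBS replicate 1 the replication sum was nearly level, and the MCM helicase sum within it had another order, with PBS replicate 2 the lowest. In Cdkn1a and Rb1, Sema3G replicates 2 and 3 were the highest of the 5, with PBS replicate 2 in the middle, and PBS replicate 1 and Sema3G replicate 1 were the lowest. With 5 libraries no correlation is given for this. Over the genes with at least 20 UMIs in a pair, Sema3G replicates 2 and 3 were also the most alike of all pairs (chi-square per degree of freedom 1.77, against 6.57 to 29.6 for the other pairs), and the labels do not say that they came from separate cultures. The part that the Rn45s share has in these values was not tested.

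The promoters of the genes were then searched for the motifs of E2F and of the late cell cycle. Promoter windows of 300 bases, from 250 before the start site to 50 after it, were taken from RefSeq (GRCm38.p6) for the 41 cell cycle genes found there, with the first window listed used for each gene. They were searched on both strands for E2F cores, for the CHR element of late cell cycle genes and for CCAAT. An E2F core was taken as TTGGCGC, as well as TTCCCGC, and further as TTCGCGC, and finally as TTGCCGC. CHR was taken as TTTGAA, and also as TTCGAA. Cores that overlap on opposite strands were both counted, and a match is no proof of a bound site. The first window listed need not be at the main start site. The windows of E2f1, Cdk6, Cdkn2c, Dut, Cdc6 and Mcm7 lay wholly inside the gene as placed in GENCODE M21. The shares of the G1 and replication promoters given next are uncertain for this reason. E2F cores were found in 8 of 13 replication promoters, 3 of 19 mitosis promoters and 2 of 9 G1 promoters, beside 9.69% of all 27025 promoters in the table. CHR was found in 15 of 19 mitosis promoters, 2 of 13 replication promoters and 0 of 9 G1 promoters, beside 19.4% of all promoters. All 15 mitosis promoters with CHR also held CCAAT, a pair that 7.7% of all promoters had.

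The promoters of 5 genes are printed 5′ to 3′ on the strand of the gene, with every E2F core, CHR and CCAAT match in capitals, to show the classes whose RNA is described above. Mcm6 (chr1:128359656-128359955, minus strand) was taken from the replication genes and has the most E2F core matches of all windows searched for these genes. Cdk1 (chr10:69352863-69353162, minus strand), Mki67 (chr7:135716330-135716629, minus strand) and Top2a (chr11:99024140-99024439, minus strand) were taken from the mitosis genes. Top2a has the most CHR matches of these windows, so Mcm6 and Top2a are extremes of their classes. Cdkn1a (chr17:29090729-29091028, plus strand), the most abundant of the 53, has no match to any of the motifs in its window.
Mcm6: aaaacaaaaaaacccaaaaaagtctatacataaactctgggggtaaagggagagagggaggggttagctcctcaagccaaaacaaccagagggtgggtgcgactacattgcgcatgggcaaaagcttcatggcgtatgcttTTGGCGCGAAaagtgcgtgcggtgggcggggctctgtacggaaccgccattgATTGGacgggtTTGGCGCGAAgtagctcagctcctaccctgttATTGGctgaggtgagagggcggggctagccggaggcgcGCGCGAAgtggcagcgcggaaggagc
Cdk1: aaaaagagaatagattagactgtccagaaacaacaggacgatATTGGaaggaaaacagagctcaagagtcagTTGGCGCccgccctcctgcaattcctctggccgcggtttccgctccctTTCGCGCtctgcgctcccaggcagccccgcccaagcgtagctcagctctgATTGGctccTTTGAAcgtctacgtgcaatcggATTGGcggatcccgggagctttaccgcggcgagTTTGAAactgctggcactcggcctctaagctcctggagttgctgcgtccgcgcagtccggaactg
Mki67: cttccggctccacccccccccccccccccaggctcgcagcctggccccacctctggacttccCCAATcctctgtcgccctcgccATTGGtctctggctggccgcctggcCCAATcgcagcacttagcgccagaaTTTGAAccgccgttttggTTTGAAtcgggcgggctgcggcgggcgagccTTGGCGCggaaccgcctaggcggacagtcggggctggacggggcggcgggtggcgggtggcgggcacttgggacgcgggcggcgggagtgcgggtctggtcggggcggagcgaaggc
Top2a: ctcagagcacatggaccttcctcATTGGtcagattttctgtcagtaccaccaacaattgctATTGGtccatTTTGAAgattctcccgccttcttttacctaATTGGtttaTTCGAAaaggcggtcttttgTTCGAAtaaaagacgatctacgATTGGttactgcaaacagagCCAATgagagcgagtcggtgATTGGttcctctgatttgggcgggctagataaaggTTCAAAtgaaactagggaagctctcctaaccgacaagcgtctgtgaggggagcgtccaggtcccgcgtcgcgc
Cdkn1a: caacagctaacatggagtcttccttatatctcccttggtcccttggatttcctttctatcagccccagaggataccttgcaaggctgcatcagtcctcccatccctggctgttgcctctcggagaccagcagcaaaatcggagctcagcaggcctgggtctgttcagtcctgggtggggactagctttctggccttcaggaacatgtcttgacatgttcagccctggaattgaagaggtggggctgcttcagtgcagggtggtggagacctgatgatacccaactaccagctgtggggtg

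In these windows Mcm6 has 5 E2F core matches and 0 of CHR, Top2a has 4 of CHR and 0 E2F cores, and Cdk1 and Mki67 have both kinds. Mki67 and Top2a, whose Sema3G libraries lay above both PBS libraries, share CHR with Cdk1, Cenpa and Plk1, whose groups overlapped. Cenpe has a CCAAT match and 0 of CHR.

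A wider list of 170 genes of the same machinery was then examined. It held origin licensing and firing, the replication fork, E2F and its partners, CDK regulators, p53 targets, the MYC network, the kinetochore and spindle, and the anaphase promoting complex. Of these, 123 reached a mean of 1 CPM, and limma called 0 higher and 0 lower, with 9 higher and 8 lower at an unadjusted p below 0.05, beside 6.83% and 14.2% of all tested genes. Their median log2 fold change was -0.12, beside -0.22 over all tested genes. The list medians ran from -0.39 for the 12 CDK inhibitors, kinases and phosphatases to 0.12 for the 8 genes of the MYC network.

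The smallest adjusted p of the wider list belonged to Ckap5, which encodes a spindle protein that helps microtubules grow. Ckap5 had 18 and 24 UMIs under PBS against 38, 61 and 51 under Sema3G, all 3 Sema3G libraries above both PBS libraries, with a log2 fold change of 1.02 (SE 0.28, limma adjusted p = 0.0685). It passed under 6 of the 16 alternatives, with log2 fold changes of 1.03 to 1.32 and adjusted p from 0.0107 to 0.0432. Among them were edgeR's quasi-likelihood test (adjusted p = 0.0272) and the fit with a replicate block (1.03, limma adjusted p = 0.0265, 1 residual degree of freedom). The block fit holds only replicates 1 and 2 of each group, so its calls here and below do not use Sema3G replicate 3. Ckap5, Ncapg2, Ncapd2, Bub3, Smc2, Mis12, Kif20b, Rfc2, Sgol2a and Mga were singled out after their values were seen, and Smc4 as the most abundant gene of its list. The condensin genes Ncapg2 and Smc4, which compact chromosomes, had log2 fold changes of 1.09 and 0.70 (limma adjusted p = 0.105 and 0.111). Each passed under 4 of the 16 alternatives, again with the replicate block among them, where Ncapg2 was at 1.22 (adjusted p = 0.0276) and Smc4 at 0.65 (adjusted p = 0.0158). Under the other 3, Ncapg2 lay between 1.28 and 1.40 (adjusted p from 0.0229 to 0.0392) and Smc4 between 0.93 and 0.99 (adjusted p from 0.0198 to 0.0307). Of the 21 kinetochore, spindle and cytokinesis genes tested, 7 had all Sema3G libraries above both PBS libraries, among them Smc2, Mis12 and Kif20b with log2 fold changes of 0.57, 1.03 and 0.72, and 2 had them below, beside 11.9% and 26.5% of all tested genes. Of the 7, Kif20b and Sgol2a reached the mean of 1 CPM through Sema3G alone, so that the filter helped to place them. Ncapd2 and Bub3 were the 2 that lay below. Ncapd2, another condensin gene, had 15 and 15 UMIs under PBS against 4, 12 and 9 under Sema3G, and Bub3, a spindle checkpoint gene, gave a log2 fold change of -0.54 (limma adjusted p = 0.165). Without Sema3G replicate 1, Bub3 was called lower (-0.69, limma adjusted p = 0.0490), as was Rfc2 of the replication fork (-1.18, limma adjusted p = 0.0333). Sgol2a, a protector of chromosome cohesion, had 0 and 0 UMIs under PBS against 5, 3 and 7 under Sema3G, so that its fitted value depends on the pseudocount. Mga, a MAX partner in the MYC network, passed under 3 alternatives that changed the scaling, with log2 fold changes of 0.70 to 0.79 and adjusted p from 0.0224 to 0.0483, while it stood at 0.50 (limma adjusted p = 0.175) without rescaling.

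By limma, the most abundant gene of each list was not called either. Mdm2, the p53 target that degrades p53, had 213 and 223 UMIs under PBS against 182, 223 and 182 under Sema3G (log2 fold change -0.31, limma adjusted p = 0.340). Rbbp4, a histone-binding partner of E2F repressor complexes, gave a log2 fold change of -0.34 (adjusted p = 0.290), Mxi1, a MYC antagonist, of 0.22 (adjusted p = 0.551), and Mcmbp, which binds the MCM helicase, of -0.12 (adjusted p = 0.764), all from limma. Ssrp1, a histone chaperone at the fork, was at -0.10 (adjusted p = 0.786), Ccng1, a cyclin induced by p53, at -0.43 (adjusted p = 0.237), and Anapc11, a subunit of the anaphase promoting complex, at -0.38 (adjusted p = 0.314), also from limma. The 13 p53 targets tested besides Cdkn1a had a median log2 fold change of -0.23, beside -0.22 over all tested genes.

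**Figure D4:**
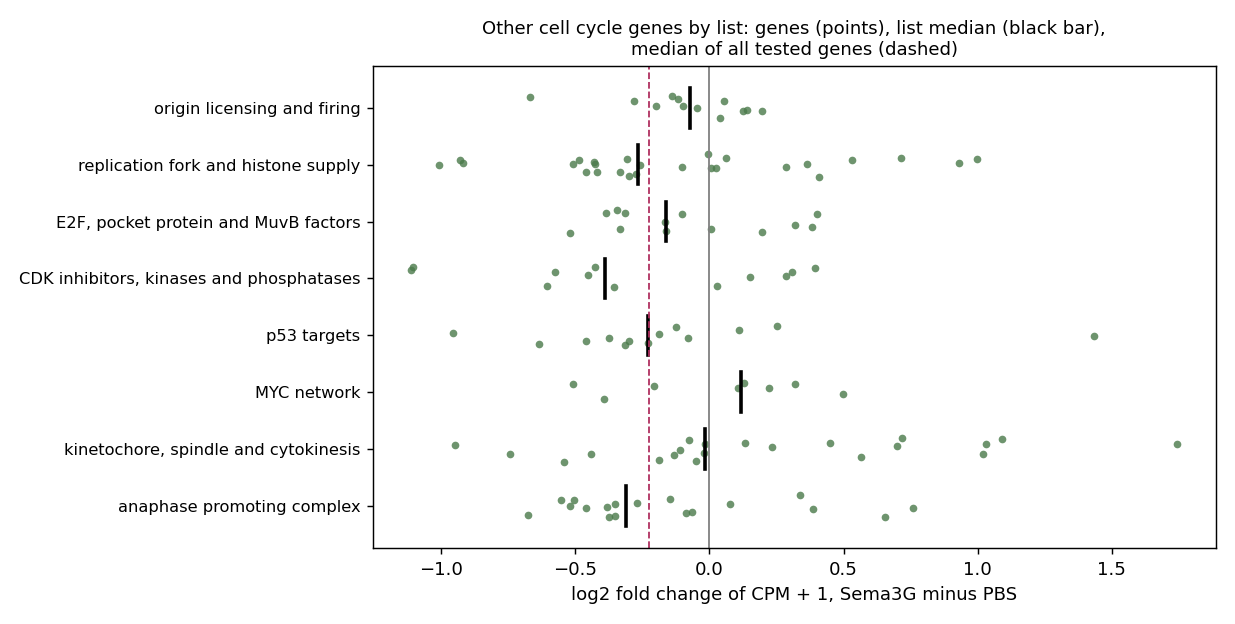
Log2 fold change of CPM + 1 (Sema3G minus PBS) of the 123 further cell cycle genes tested, by list (points), with the list median (black bar) and the median of all tested genes (dashed line, -0.22). The highest point among the kinetochore, spindle and cytokinesis genes is Sgol2a, with 0 UMIs in both PBS libraries, whose fitted value depends on the pseudocount. Sgol2a and Kif20b of that list reached the mean of 1 CPM through Sema3G alone. The MYC network has the highest median, 0.12.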

How the data were processed

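RNA of 5 libraries was analysed, 2 with PBS and 3 with Sema3G. The authors made 3′ end libraries with UMIs, aligned the reads to the mouse build mm10, obtained UMI counts in Strand NGS, and ran edgeR (3.12 in the submitters' processing notes). Gene annotation and strand use are not given in sources used here, and 18 of the 53 genes share exon sequence with another GENCODE M21 gene, 16 on the other strand. The authors deposited CPM values, beside p-values, q-values and ranks from a comparison of theirs that was left out. Dividing each library's CPM by its smallest step gave UMI counts, 100% of them less than 0.01 away from an integer.

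For 10088 genes whose mean reached 1 CPM, log2(CPM + 1) was tested with limma's trended empirical Bayes (3.58.1, under R 4.3.3). Fold changes on this scale understate changes of scarce genes. The recovered counts were tested with edgeR (4.0.16) and DESeq2 (1.42.0). Only limma without a replicate block, edgeR's quasi-likelihood test with TMM scaling and DESeq2 were tried on simulated data. The fits with a replicate block, other scaling or pseudocount, or a library left out were not. Power for scarce genes was not tested. Alternatives changed the pseudocount, filter, scaling, test and pairing, and left out each library. Values in full are given for the 6 most abundant genes of each role with Myc, Mki67, Top2a, Ccnd1 and Cdkn1a, and, from the wider list, for the most abundant gene of each part. The genes, lists and rules were chosen with earlier results of these data known. Intervals of counts cover counting error only.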

Additional observations from a re-analysis of the deposited data

How the results depend on the processing

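The libraries, 2 and 3 per group, and the UMIs per gene were few. The 95% interval excluded a 2-fold change of CPM + 1 in both directions for 10 of the 39 tested genes. It did so for 45.7% of all tested genes. The number of the 53 genes called stayed at 0 except with the replicate block, where it was 1 (Cenpe, log2 fold change 1.95, adjusted p = 0.0169 from limma with 1 residual degree of freedom), and without PBS replicate 2, where it was 1 (Tuba1b). With 1 library left out it ran from 0 to 1, as it did for the mitosis genes alone, and the block gave 1 there too. Equal replicate numbers share only a number. Their deviations had correlations of 0.173 and 0.111 over genes. With 2 PBS libraries, each Sema3G library must correlate with both equally strongly and with opposite signs. Sema3G replicate 3, which has no partner, gave 0.0973 with PBS replicate 2. These values cannot settle whether a pairing existed. No label gives one, so it was left out of the main test. Where 1 PBS library was left, it was assumed to vary like the others.

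The number of all genes called, 182, was 108 with no filter, 328 with TMM factors, 341 with DESeq2 size factors, 495 with CPM taken only from listed genes and without Rn45s (called listed-gene CPM from here), 304 with edgeR's quasi-likelihood test, 559 with the replicate block (278 higher and 281 lower) and 27 to 710 with 1 library left out, 27 without Sema3G replicate 2, 32 without Sema3G replicate 3, 99 without PBS replicate 1 and 710 without Sema3G replicate 1. The calls were 160 higher and 22 lower, but 270 higher and 440 lower without Sema3G replicate 1, and 325 higher and 3 lower with TMM factors. The wider list had 0 calls, but 3 with TMM factors, 3 with DESeq2 size factors, 4 with listed-gene CPM, 1 with edgeR's quasi-likelihood test, 1 with DESeq2, 3 with the replicate block and 0 to 4 with 1 library left out. Ckap5 was among them under 6 of these settings. The cause was not tested.

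In the order TMM factors, DESeq2 size factors, listed-gene CPM, edgeR's quasi-likelihood test and DESeq2, the median log2 fold change was -0.036, -0.029, 0.042, -0.038 and -0.031 for all genes, -0.13, -0.12, -0.055, -0.13 and -0.12 for the G1 regulators, and -0.047, -0.041, 0.028, -0.080 and -0.074 for the replication genes. For the mitosis genes, at -0.28, it was -0.14, -0.13, -0.053, -0.29 and -0.30. With 1 library left out, the median ran from -0.30 to -0.13 for all genes, from -0.44 to -0.23 for the G1 regulators, from -0.44 to -0.11 for the replication genes and from -0.61 to 0.035 for the mitosis genes. Without PBS replicate 2 that of the replication genes was -0.44.

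Of 301 single-gene values under the alternatives, 28 changed sign, and 1, that of Tuba1b without PBS replicate 2, passed the test. In the same order of scalings and tests, Cdkn1b became 0.20, 0.21, 0.28, 0.20 and 0.21 (0.024 with the replicate block) and Mcm3 0.17, 0.18, 0.26, 0.14 and 0.15. Ccnd1 became 0.083, 0.087 and 0.16 with the scalings and 0.029 with DESeq2, E2f1 0.061 with listed-gene CPM and 0.0055 with DESeq2, and Mcm4 0.042 with the former. With 1 library left out, Cdkn1a ran from -0.061 to 0.83, Cdkn1b from -0.16 to 0.15, Mcm3 from -0.47 to 0.42, Mcm4 from -0.84 to 0.39, Tuba1b from -0.92 to 0.23, Hmgb2 from -0.85 to 0.075 and Ccnd1 from -0.89 to 0.76.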
